A study of Homo sapiens with 6 samples.

Results

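The 78 mitochondrial ribosomal protein genes were followed in Huh7, a widely used line of human hepatocellular carcinoma cells, whose ITGB5 gene, coding for the integrin beta 5 subunit, was targeted by a short hairpin RNA. They were chosen by name alone, as the protein-coding genes of the table whose symbol is MRPL or MRPS followed by a digit. They number 78 of 58735 genes listed, or of 19951 protein-coding genes, with 49 MRPL and 29 MRPS names, and lie on 21 chromosomes. RNA-seq counts came from 3 libraries labelled shITGB5 and 3 labelled shcontrol (a control hairpin). All 6 came from Huh7 cells grown in RPMI-1640 medium with fetal bovine serum, and no drug treatment is named in the labels. The sources used here give neither the hairpin sequences nor whether each group was a clone or a pool. Nothing says that replicate libraries were grown as separate cultures, so the p-values cover the spread between libraries only, and that spread may be technical.

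Mitochondria carry their own ribosome, which makes the few respiratory chain proteins encoded by mitochondrial DNA. Its RNAs are transcribed inside the organelle, whereas all of its proteins are encoded by nuclear genes, made in the cytosol and imported. Many of these proteins have a counterpart in the bacterial ribosome and others are found only in mitochondria, and hepatocytes are rich in mitochondria. By unified ribosomal nomenclature, 51 of the genes code for large-subunit proteins and 26 for small-subunit proteins, since the products of MRPS30 and MRPS18A sit in the large subunit despite their names. MRPS36, the last of the 78, codes for a protein assigned by later work to the 2-oxoglutarate dehydrogenase complex.

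The libraries held 16563911 to 18011313 counts with the ITGB5 hairpin and 15777922 to 17476580 with the control hairpin. At these depths a gene with no count could still lie at up to 0.167 to 0.190 CPM (counts scaled to a common library total), for counting error only. Transcripts of the mitochondrial genome took 3.24% to 3.29% of the counts in shITGB5 libraries and 3.465% to 3.536% in shcontrol libraries. All 10 hepatocyte and hepatoma markers checked passed the filter on low counts. Their summed level was 8527 to 8723 CPM in shITGB5 cells and 7589 to 7774 CPM in shcontrol cells. Of these 10, 7 were called higher, beside 8.31% of all genes tested. The 9 fibroblast and stellate cell markers, of which 6 passed the filter, summed to 343.2 to 355.4 CPM with the ITGB5 hairpin against 307.7 to 321.6 CPM with the control, and LUM among them was called higher. The 6 endothelial markers, of which PECAM1 alone passed, summed to 4.73 to 5.69 CPM in shITGB5 cells and 3.61 to 5.83 CPM in shcontrol cells, with KDR at 0. The 7 blood and immune markers, of which CD14 and LYZ passed, summed to 40.3 to 42.8 CPM in shITGB5 cells and 37.61 to 37.95 CPM in shcontrol cells, with HBA1 at 0. The part of these marker differences in the results below was not tested.

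ITGB5 itself (ENSG00000082781, chromosome 3, 124761948 to 124901418, minus strand, GRCh38) had 173.1, 181.0 and 174.3 CPM in shITGB5 libraries, against 204.7, 213.8 and 216.9 CPM in shcontrol libraries. It was lower in every shITGB5 library but far from absent, at 176.1 ± 4.296 CPM with its hairpin and 211.8 ± 6.35 CPM with the control (SD, n = 3 each), a fall of 16.8%. The log2 change was -0.27 with a standard error (SE) of 0.032 (edgeR quasi-likelihood test, Benjamini-Hochberg adjusted p = 2.13e-09). A two-sided exact permutation test gave p = 0.1, the smallest that 3 libraries against 3 allow. In bulk RNA, fewer cells with a transcript and less of it per cell cannot be told apart. The comparison thus describes the genes of the mitochondrial ribosome in cells with the ITGB5 hairpin, where ITGB5 mRNA was lower by this amount. Effects of the lower ITGB5 mRNA, of the hairpin itself and of how each group was derived cannot be told apart.

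The genes of the mitochondrial ribosome moved little and not in 1 direction. Of the 78, all of which passed the filter on low counts, 7 rose and 3 fell at an adjusted p under 0.05 (edgeR, adjusted over the 16577 genes tested), and 68 did not pass. The 10 called genes are 12.8% of the members, beside 15.1% of all genes tested (8.31% higher and 6.74% lower), so their share was near the background. The largest rise was that of MRPL17, by 33.2%, and the largest falls among called members were those of MRPS14, which fell by 32.7%, and MRPS6, which fell by 23.0%. The ITGB5 hairpin and control libraries did not overlap for 25 members (18 higher and 7 lower with the ITGB5 hairpin), or 32.1%, against 28.5% of all genes tested (14.7% higher and 13.8% lower).

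Small upward values were more common than downward ones. The fitted log2 change was above 0 for 53 members and below 0 for 25, with a median of 0.04 beside -3.64e-05 over all genes tested and 0.0029 over those that code for protein. The middle of the distribution was narrow, with quartiles of -0.03 and 0.10 for the members and -0.09 and 0.11 for tested protein-coding genes. For 47 members the log2 change was under 0.1 in size. Of the 68 that did not pass, 50 had a 95% confidence interval lying wholly within a 1.2-fold change in either direction, and the median SE was 0.059 for the members against 0.089 for all genes tested.

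Added up, the 78 genes took 0.397%, 0.396% and 0.403% of the counts in shITGB5 libraries, against 0.390%, 0.387% and 0.387% in shcontrol libraries. Every shITGB5 share lay above every shcontrol share. This sum gives most weight to the abundant members.

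**Figure D1:**
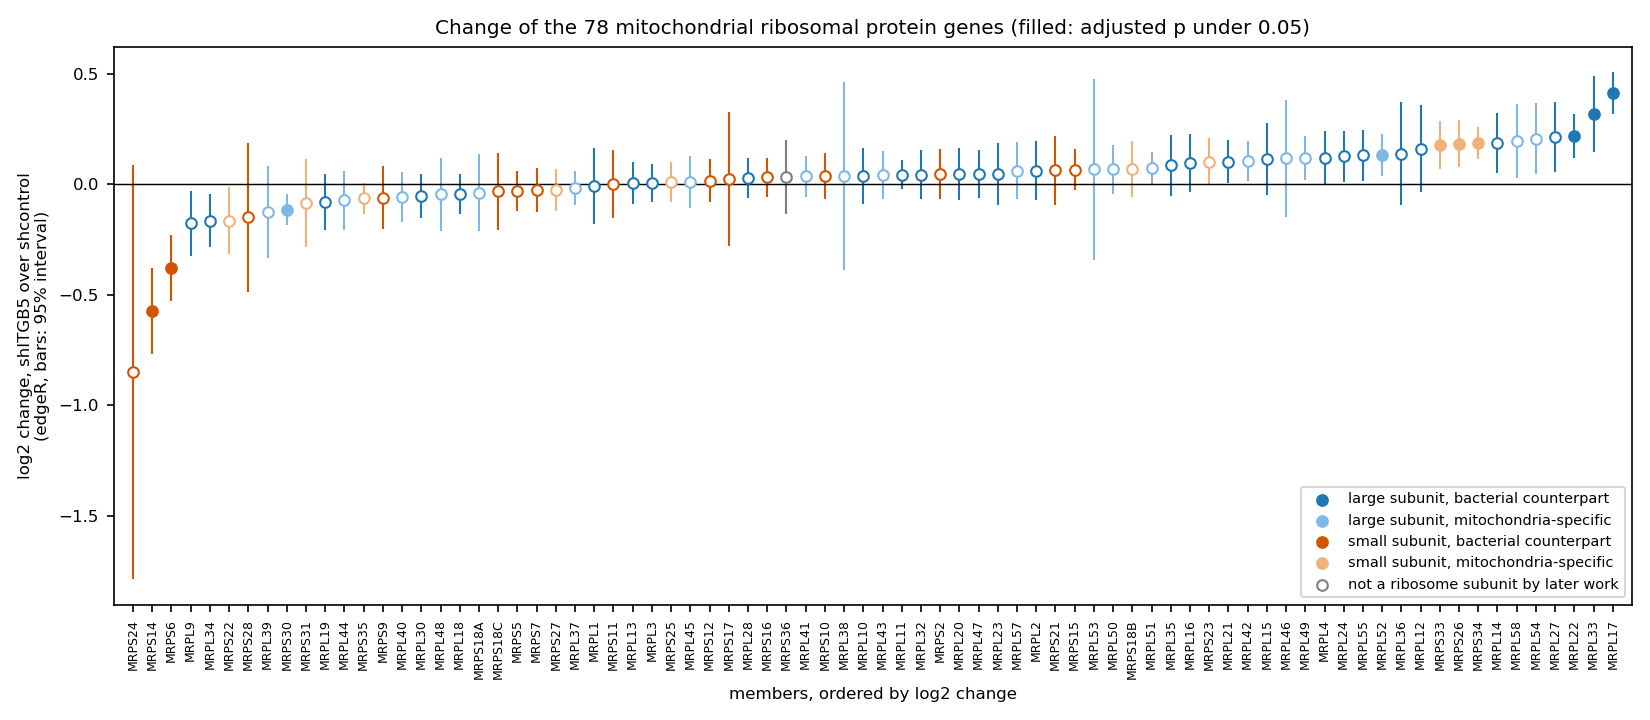
Log2 change (shITGB5 over shcontrol) of each of the 78 genes, in order of change and coloured by subunit and bacterial counterpart, with 95% confidence intervals from the edgeR fit and filled points for called genes. Most points (47 of 78) lie within 0.1 of 0, MRPL17 is the highest, and MRPS24, which was not called, has both the lowest value and the widest interval.

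Levels between genes were compared as FPKM, computed here from the counts and the exonic length of each gene. The members' median was 15.4 FPKM, beside 5.65 FPKM for tested protein-coding genes, and 59 of the 78 reached 10 FPKM. MRPS34 was the highest at 134.1 FPKM, ahead of MRPL51 at 79.7, MRPS35 at 78.3, MRPL11 at 67.5, MRPL41 at 66.5 and MRPL18 at 61.3 FPKM. Of these 6, only MRPS34 was called. MRPL51 had a log2 change of 0.08 (edgeR adjusted p = 0.170), MRPS35 of -0.06 (0.272), MRPL11 of 0.04 (0.433), MRPL41 of 0.04 (0.688) and MRPL18 of -0.04 (0.616).

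At the other end, MRPS24 was listed at 0.238 FPKM, MRPL38 at 0.874, MRPL46 at 1.25, MRPL53 at 2.51, MRPS28 at 2.78 and MRPS17 at 2.92 FPKM. These 6 lowest members all share over 10% of their exonic bases with another gene on the same strand. MRPS24 shares 23.2% with the readthrough gene URGCP-MRPS24, MRPL38 37.5% with AC087289.3, MRPL46 11.3%, MRPL53 45.2% with CCDC142, MRPS28 35.8% and MRPS17 27%. The 10 members over this overlap had a median of 2.85 FPKM (0.238 to 21.3), whereas the other 68 had a median of 17.0 FPKM and none under 3.97. The size of the overlap did not order the levels, since MRPL12, with the largest overlap (68.2%), was at 15.3 FPKM. Same-strand partners held 0% as many counts as the member for MRPL46, 1.55% for MRPS28, 5.20% for MRPL38 and 11.1% for MRPS24. For MRPL53 and MRPS17 they held 418.1% and 471.5%. An overlap over 10% was found for 6.80% of tested protein-coding genes. The sources used here do not say how reads in shared exons were counted, so the level of these genes is uncertain, and the part of the overlap in their low values was not tested.

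None of the 6 was called. MRPS24 had the largest fitted change of any member, with 0.501, 0.363 and 0.454 CPM in shITGB5 libraries against 0.631, 0.954 and 0.823 CPM in shcontrol libraries. It rested on 63 counts over all 6 libraries, and the log2 change of -0.85 had a 95% interval of -1.79 to 0.09 (edgeR adjusted p = 0.256). MRPS28 had a log2 change of -0.15 (0.655), MRPL46 of 0.12 (0.652), MRPL53 of 0.07 (0.889) and MRPL38 of 0.04 (0.945).

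Copies elsewhere in the genome held few counts. Of 75 pseudogenes named after members, 28 had any count, and together they held 122, 115 and 125 counts in shITGB5 libraries and 132, 104 and 158 counts in shcontrol libraries. The copies of MRPS31 held 13.4% and those of MRPL45 9.56% of the counts of their parent, so these 2 levels are less certain, and no other parent had over 1.21%. Neither MRPS31 nor MRPL45 was called. How reads that match both a copy and its parent were counted is not given here. Reads shared or dropped between them therefore cannot be seen, for these or other parents.

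**Figure D2:**
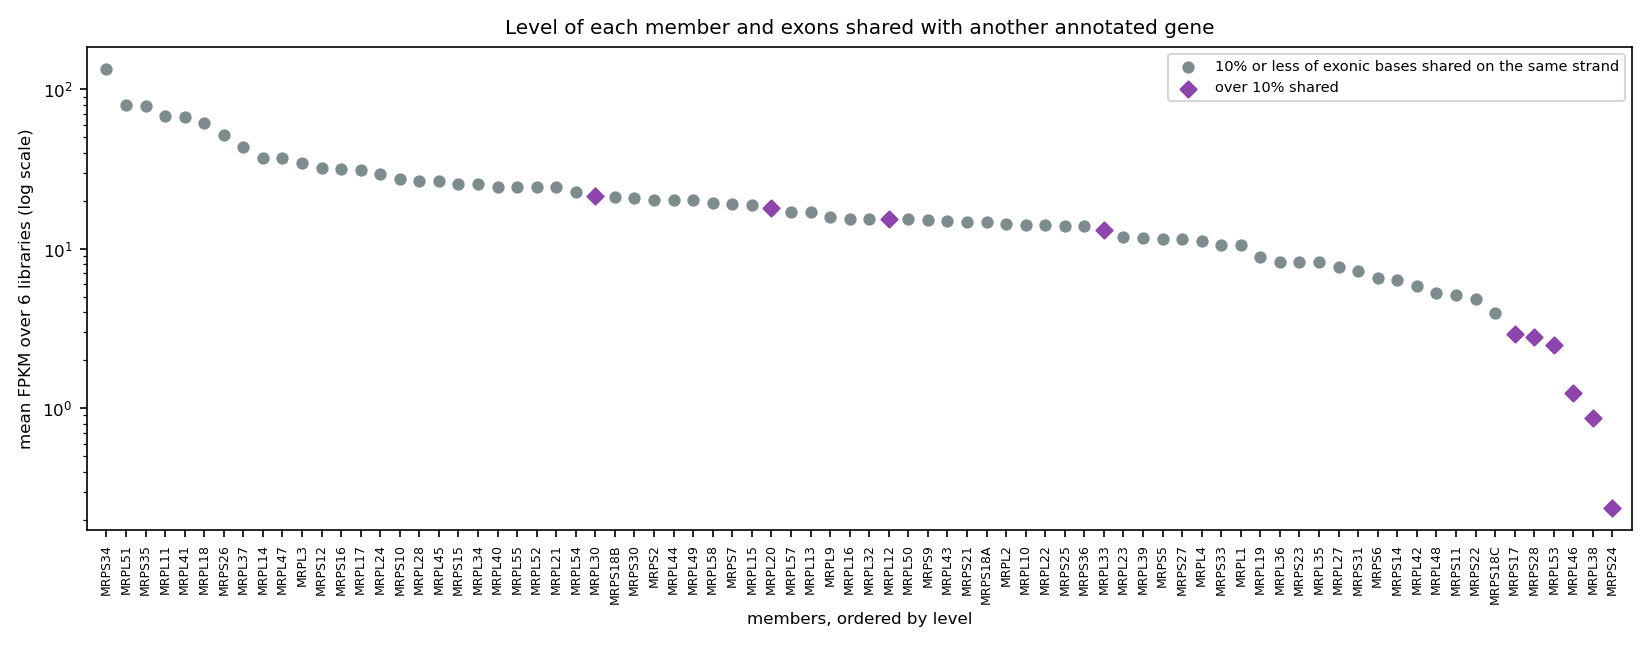
Mean level of each of the 78 genes over all 6 libraries in FPKM (log axis), ordered by level, with diamonds for members that share over 10% of their exonic bases with another gene on the same strand. MRPS34 stands at the top at 134.1 FPKM, 6 of the 10 diamonds form the low end, where MRPS24 lies at 0.238 FPKM, and MRPL30, MRPL20, MRPL12 and MRPL33 lie among the other members.

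Among the 30 large-subunit genes with a bacterial counterpart, 3 rose, none fell and 27 did not pass. Beside this stand 8.31% called higher and 6.74% called lower over all genes tested. Their median log2 change was 0.06, with 24 of 30 above 0. Their summed level was 1532, 1542 and 1571 CPM with the ITGB5 hairpin and 1479, 1486 and 1466 CPM with the control, so the groups did not overlap. The mean sums, 1548 ± 20.2 CPM in shITGB5 cells and 1477 ± 10.3 CPM in shcontrol cells (SD, n = 3 each), differed by 4.84%.

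MRPL17 codes for the counterpart of bacterial L17 and showed the clearest change of all members. MRPL17 (ENSG00000158042, chromosome 11, 6680782 to 6683401, minus strand) had 79.3, 83.5 and 79.8 CPM in shITGB5 libraries, against 62.0, 59.2 and 60.9 CPM in shcontrol libraries. The lowest shITGB5 library stood well above the highest control. The log2 change was 0.41 (SE 0.047, 95% interval 0.32 to 0.51; edgeR adjusted p = 3.65e-10).

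MRPL33, the counterpart of bacterial L33, and MRPL22, the counterpart of the L22 protein that lines the exit tunnel of the bacterial ribosome, also rose. MRPL33 (ENSG00000243147, chromosome 2, 27771717 to 27988087, plus strand) had 22.22, 23.36 and 22.04 CPM with the ITGB5 hairpin against 18.4, 19.3 and 16.4 CPM with the control, a log2 change of 0.32 (SE 0.086, edgeR adjusted p = 0.00537). Of its exonic bases 21.1% are shared with BABAM2 on the same strand, which held 86.5% as many counts as MRPL33 and whose own log2 change was -0.03 (0.877). MRPL22 (ENSG00000082515, chromosome 5, 154941070 to 154969411, plus strand) had 80.5, 75.8 and 82.5 CPM in shITGB5 libraries and 61.6, 72.5 and 71.3 CPM in shcontrol libraries, a log2 change of 0.22 (SE 0.050, edgeR adjusted p = 0.000859). Neither gene's groups overlapped, yet each call hung on 1 control library. Without shcontrol replicate 3 MRPL33 had an adjusted p of 0.0627, and without shcontrol replicate 1 MRPL22 had 0.0587.

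The members of this group that came nearest without passing were MRPL14, MRPL34 and MRPL27. MRPL14, the counterpart of bacterial L14, had 35.8, 36.7 and 41.5 CPM in shITGB5 cells and 31.3, 35.1 and 33.8 CPM in shcontrol cells, a log2 change of 0.19 (edgeR adjusted p = 0.0508). It passed without shITGB5 replicate 1 (0.0289) and without shcontrol replicate 2 (0.0374). MRPL34, the counterpart of bacterial L34, lay in the other direction, with 39.2, 41.8 and 40.9 CPM in shITGB5 cells and 47.8, 45.6 and 42.9 CPM in shcontrol cells, a log2 change of -0.16 (edgeR adjusted p = 0.0558). It passed with library totals in place of TMM scaling (0.0499), with robust fitting (0.0476) and without shcontrol replicate 3 (0.0320). For MRPL27 the log2 change was 0.21 (0.0592). MRPL9 had the lowest value of the group, -0.18 (0.107), and passed without shITGB5 replicate 1 (0.0366).

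Of the 21 large-subunit genes found only in mitochondria, MRPL52 rose, MRPS30 fell and 19 did not pass, with a median log2 change of 0.04. The share called over all genes tested was 15.1%. They summed to 1084, 1068 and 1096 CPM in shITGB5 libraries and 1065, 1057 and 1055 CPM in shcontrol libraries. The means of 1083 ± 14.3 CPM in shITGB5 cells and 1059 ± 5.42 CPM in shcontrol cells differed by 2.24%. MRPS30 (ENSG00000112996, chromosome 5, 44808925 to 44820428, plus strand) had 123.9, 125.1 and 125.0 CPM with the ITGB5 hairpin against 135.4, 138.3 and 130.9 CPM with the control, a log2 change of -0.11 (SE 0.036, edgeR adjusted p = 0.0224). MRPL52 (ENSG00000172590, chromosome 14, 22829879 to 22835037, plus strand) had 82.0, 76.0 and 87.3 CPM with the ITGB5 hairpin against 74.9, 75.2 and 73.6 CPM with the control, a log2 change of 0.13 (SE 0.047, 0.0412).

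Both were small and fragile. MRPS30 missed the threshold without shITGB5 replicate 1 (0.0644) or 3 (0.0565) and without shcontrol replicate 1 (0.0674) or 2 (0.134). Of the fits that left out a library, only that without shITGB5 replicate 2 called MRPL52, with adjusted p-values of 0.0805 to 0.350 without any other library. In the same group MRPL54 had a log2 change of 0.21 (edgeR adjusted p = 0.0757), MRPL58, whose product releases peptides from stalled mitochondrial ribosomes, of 0.20 (0.107), and MRPL39 of -0.13 (0.501). MRPL54 passed with limma on log2(FPKM + 1) (limma adjusted p = 0.0407).

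The 16 small-subunit genes with a bacterial counterpart held the 2 largest called falls and no called rise. Here 2 fell and 14 did not pass, 8 of 16 values were above 0, and the median log2 change was -0.01. The group is small, and 6.74% of all genes tested were called lower and 8.31% higher. Their sum was 638.2, 628.8 and 638.0 CPM in shITGB5 libraries and 647.4, 637.7 and 645.3 CPM in shcontrol libraries, which overlapped. The highest value of the group was that of MRPS15, 0.07 (edgeR adjusted p = 0.392).

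MRPS14 codes for the counterpart of bacterial S14, a protein of the head of the small subunit. MRPS14 (ENSG00000120333, chromosome 1, 175010789 to 175023425, minus strand) had 12.8, 11.9 and 15.3 CPM in shITGB5 libraries, against 21.2, 19.4 and 18.8 CPM in shcontrol libraries. All 3 shITGB5 values lay below all 3 controls, at 13.3 ± 1.75 CPM in shITGB5 cells and 19.8 ± 1.26 CPM in shcontrol cells (SD, n = 3 each). The log2 change was -0.57 (SE 0.097, 95% interval -0.77 to -0.38; edgeR adjusted p = 7.87e-06). CACYBP on the opposite strand shares 13.5% of the exonic bases of MRPS14. It held 482.9% of the counts of MRPS14 and had a log2 change of -0.03 (0.764).

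MRPS6 codes for the counterpart of bacterial S6. MRPS6 (ENSG00000243927, chromosome 21, 34073224 to 34143034, plus strand) had 26.1, 23.8 and 23.8 CPM in shITGB5 libraries, against 33.0, 32.5 and 30.3 CPM in shcontrol libraries, with no overlap. The log2 change was -0.38 (SE 0.074, edgeR adjusted p = 9.73e-05). SLC5A3, the gene of a myo-inositol transporter, lies on the same strand and shares 6.35% of the exonic bases of MRPS6. It held 212.8% of the counts of MRPS6 and fell as well, with a log2 change of -0.43 (edgeR adjusted p = 9.11e-10), and reads in the shared bases cannot be told apart.

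Among the 10 small-subunit genes found only in mitochondria, 3 rose, none fell and 7 did not pass, with a median log2 change of 0.04. This group too is small, and 8.31% of all genes tested were called higher and 6.74% lower. Their sum was 709.3, 714.3 and 716.7 CPM in shITGB5 libraries and 698.7, 676.2 and 681.3 CPM in shcontrol libraries. The means of 713.4 ± 3.80 CPM in shITGB5 cells and 685.4 ± 11.8 CPM in shcontrol cells differed by 4.09%. MRPS34, the most abundant of the 78, has a product needed for a stable small subunit. MRPS34 (ENSG00000074071, chromosome 16, 1771890 to 1773155, minus strand) had 151.4, 158.7 and 160.0 CPM with the ITGB5 hairpin against 143.3, 129.4 and 140.2 CPM with the control. Its log2 change of 0.19 (SE 0.037, edgeR adjusted p = 9.63e-05) kept its call whichever library was left out, as did those of MRPL17, MRPS14 and MRPS6.

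MRPS26 and MRPS33 rose by similar amounts on less firm ground. MRPS26 (ENSG00000125901, chromosome 20, 3045945 to 3048254, plus strand) had 62.9, 63.2 and 60.8 CPM in shITGB5 libraries and 54.6, 50.8 and 59.1 CPM in shcontrol libraries, a log2 change of 0.19 (SE 0.053, edgeR adjusted p = 0.00992), with 0.151 when shcontrol replicate 2 was left out. MRPS33 (ENSG00000090263, chromosome 7, 141002610 to 141015228, minus strand) had 58.4, 55.9 and 63.5 CPM in shITGB5 libraries and 53.4, 52.3 and 51.5 CPM in shcontrol libraries, a log2 change of 0.18 (SE 0.054, 0.0149). Its call was lost without shITGB5 replicate 3 (0.193) or shcontrol replicate 3 (0.0692). MRPS22 had the lowest value of the group, -0.16 (edgeR adjusted p = 0.150). The log2 change of MRPS36 was 0.03 (0.859). With limma on log2(FPKM + 1), MRPS30 (limma adjusted p = 0.0717), MRPS26 (0.0763), MRPS33 (0.0945), MRPL22 (0.0978) and MRPL52 (0.171) did not pass, and with DESeq2 MRPL52 (0.0570) did not.

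**Figure D3:**
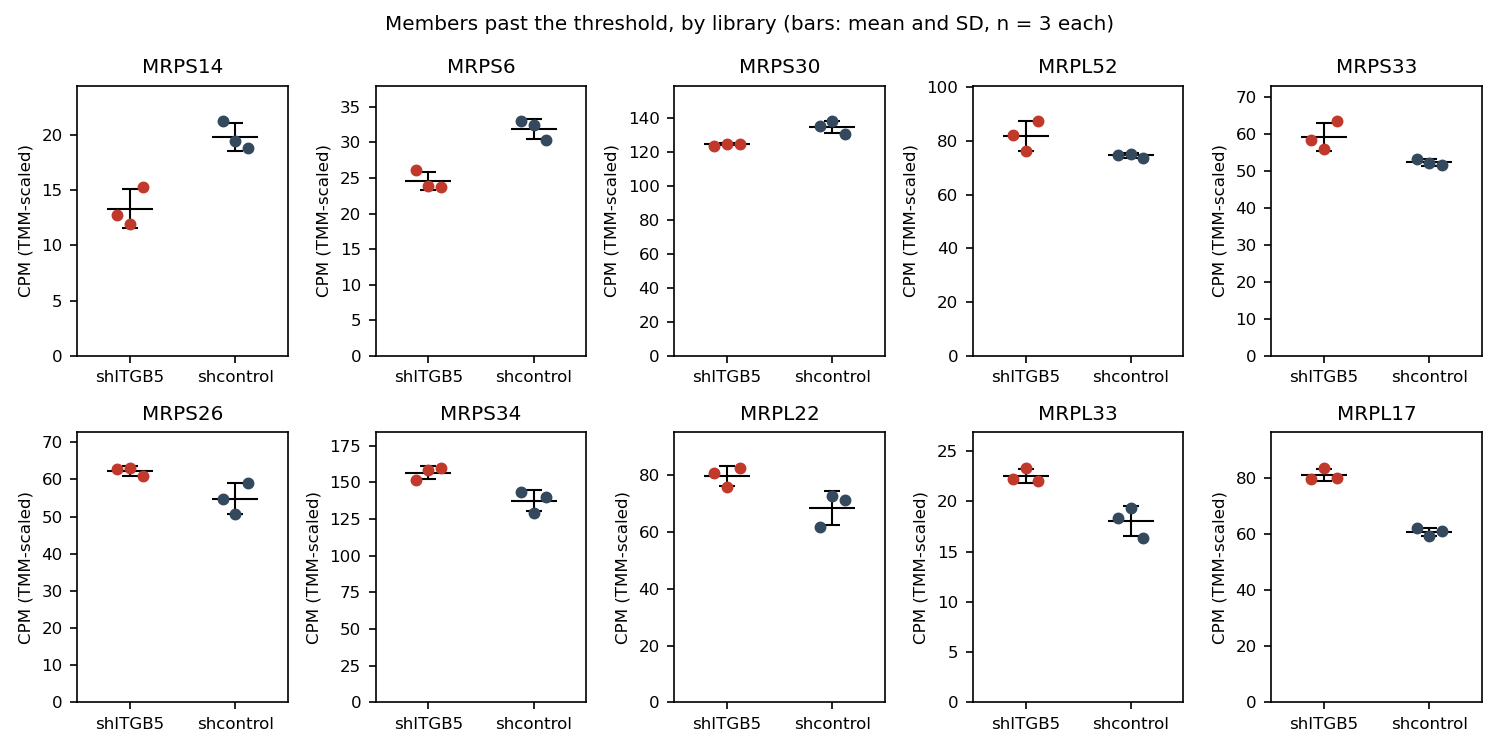
Level in CPM of the 10 called genes in each shITGB5 library and each shcontrol library, with bars at the group means and standard deviations (n = 3 each). The 2 groups are well apart for MRPL17, MRPS14 and MRPS6, and lie close together for MRPL52 and MRPS30.

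Taken as whole subunits, the 51 large-subunit genes summed to 2631 ± 31.7 CPM in shITGB5 cells and 2536 ± 13.1 CPM in shcontrol cells, 3.75% higher with the ITGB5 hairpin. The 26 small-subunit genes summed to 1348 ± 5.86 CPM in shITGB5 cells and 1329 ± 16.2 CPM in shcontrol cells (SD, n = 3 each), 1.47% higher. The large-subunit sums did not overlap between groups (2610 to 2667 CPM with the ITGB5 hairpin, 2521 to 2544 CPM with the control), while those of the small subunit did. The difference between the subunits was not tested.

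The counts of the RNAs of the ribosome itself, made from mitochondrial DNA, differed in opposite directions. How the libraries were selected for mRNA or cleared of rRNA is not described here, and the part of that step in these counts was not tested. MT-RNR1, the rRNA of the small subunit, had 525.0, 521.5 and 547.8 CPM in shITGB5 libraries against 601.6, 584.8 and 598.6 CPM in shcontrol libraries, a log2 change of -0.16 (SE 0.024, edgeR adjusted p = 5.39e-07). MT-RNR2, the rRNA of the large subunit, had 3208, 3072 and 3273 CPM with the ITGB5 hairpin against 3064, 3034 and 3018 CPM with the control, a log2 change of 0.07 (0.00814). The MT-RNR2 call was lost without shITGB5 replicate 3 (0.141), without shcontrol replicate 3 (0.0612), with DESeq2 (0.0604) and with limma on log2(FPKM + 1) (0.132).

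The promoters of 69 of the 78 genes were matched in RefSeq (GRCh38.p14), each as 300 bases, of which the last 50 lie past the annotated start. They were searched on both strands for 5 words known as core binding motifs: GCATGCGC for NRF1, CCGGAAG for ETS-family factors such as GABP, AAGATGGC for YY1, CCAAT for NF-Y and GGGCGG for SP factors. NRF1 and GABP are known regulators of nuclear genes for mitochondrial proteins. The promoters of MRPL17, MRPL22 and MRPL52, which rose and hold the NRF1 word, of MRPS34, which rose and holds 3 ETS words, and of MRPS14, which fell and holds none of the NRF1, ETS and YY1 words, are printed 5′ to 3′ on the strand of the gene. Capitals mark NRF1, ETS and YY1 words, and positions count from 1 at the 5′ end of the window.
MRPL17, chr11:6683291-6683590, minus strand: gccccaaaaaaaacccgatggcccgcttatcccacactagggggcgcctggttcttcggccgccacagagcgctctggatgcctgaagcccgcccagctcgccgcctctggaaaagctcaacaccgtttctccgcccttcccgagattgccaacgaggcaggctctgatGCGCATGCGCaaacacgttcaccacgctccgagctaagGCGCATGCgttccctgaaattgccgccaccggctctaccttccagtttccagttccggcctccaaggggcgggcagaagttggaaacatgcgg
MRPL22, chr5:154940823-154941122, plus strand: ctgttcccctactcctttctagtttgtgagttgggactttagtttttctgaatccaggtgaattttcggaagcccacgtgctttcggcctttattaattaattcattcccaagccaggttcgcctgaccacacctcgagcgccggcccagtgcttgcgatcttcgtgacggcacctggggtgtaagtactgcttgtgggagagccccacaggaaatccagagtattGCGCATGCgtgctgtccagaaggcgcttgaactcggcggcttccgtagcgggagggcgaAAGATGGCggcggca
MRPL52, chr14:22829637-22829936, plus strand: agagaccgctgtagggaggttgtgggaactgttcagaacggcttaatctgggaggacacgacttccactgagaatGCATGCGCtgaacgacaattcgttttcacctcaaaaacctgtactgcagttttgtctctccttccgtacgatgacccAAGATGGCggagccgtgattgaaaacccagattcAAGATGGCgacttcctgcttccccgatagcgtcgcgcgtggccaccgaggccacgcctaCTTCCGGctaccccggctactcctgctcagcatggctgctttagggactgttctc
MRPS34, chr16:1773085-1773384, minus strand: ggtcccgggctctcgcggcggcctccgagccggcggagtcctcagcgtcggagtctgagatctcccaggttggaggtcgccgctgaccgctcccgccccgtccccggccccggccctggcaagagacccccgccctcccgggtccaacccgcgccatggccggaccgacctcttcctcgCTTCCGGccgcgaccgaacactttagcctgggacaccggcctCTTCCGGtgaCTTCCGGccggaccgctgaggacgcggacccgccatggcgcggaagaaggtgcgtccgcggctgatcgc
MRPS14, chr1:175023376-175023675, minus strand: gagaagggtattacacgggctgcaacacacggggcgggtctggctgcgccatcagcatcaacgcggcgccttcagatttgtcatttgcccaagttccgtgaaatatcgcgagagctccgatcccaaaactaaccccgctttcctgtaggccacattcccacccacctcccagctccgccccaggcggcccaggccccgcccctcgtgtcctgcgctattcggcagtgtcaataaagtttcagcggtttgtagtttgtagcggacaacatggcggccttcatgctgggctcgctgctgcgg

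The NRF1 word begins at bases 170, 172 and 208 of the MRPL17 promoter, the first 2 on opposite strands of 1 palindrome. It begins at base 227 in MRPL22 and at base 76 in MRPL52. MRPL52 also holds YY1 words at 153 and 187 and an ETS word at 246, and MRPL22 a YY1 word at 286, past its start. In MRPS34 the ETS words begin at 180, 222 and 232.

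YY1 and ETS words were frequent among the members. The YY1 word lay in 20 of 69 member promoters (28.99%), beside 5.16% of the 10629 promoters of tested protein-coding genes and 3.99% of all 14895 in the table. The ETS word lay in 29 (42.0%), beside 18.5% and 14.4%, and the NRF1 word in 6 (8.70%), beside 5.29% and 4.31%. CCAAT lay in 20 (28.99%) against 36.4% of tested genes, and the GC box GGGCGG in 42 (60.9%) against 69.1%. Their median GC content was 60.3%, below the 65.3% of tested genes. A match is a run of letters in this window and was not tested as a site, and the lack of one says only that these letters are not in the window.

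The 6 members with an NRF1 word were MRPL17, MRPL22 and MRPL52, which rose, and MRPS18B, MRPL32 and MRPS18C, which were not called. Of the 63 without it, 4 rose and 3 fell. The 29 with an ETS word included 5 that rose and none that fell, and the 40 without it included 2 that rose and 3 that fell. Of the 20 with a YY1 word 2 rose and 1, MRPS30, fell, and of the 49 without it 5 rose and 2 fell. Among the 20 with CCAAT 0 rose and 1 fell, against 7 and 2 of the 49 without it. For the GC box 4 of the 42 holders rose and 2 fell, against 3 and 1 of the 27 without it. These counts are small and describe the called genes only. Of all genes tested, 8.31% were called higher and 6.74% lower. The shares called among all tested genes with or without each word are not given here, and a link of word and direction was not tested.

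**Figure D4:**
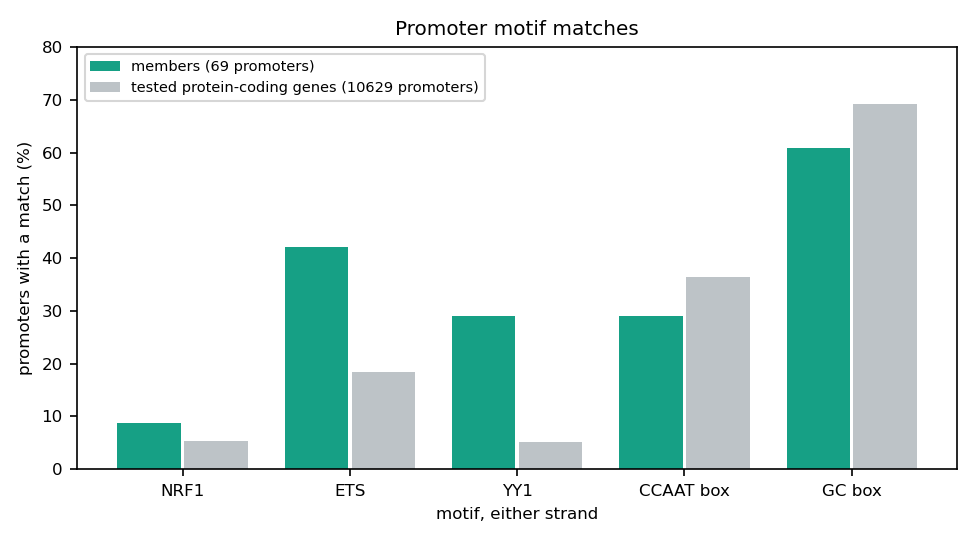
Share of promoters in percent that hold each of 5 motif words, for the 69 members and for all tested protein-coding genes with a promoter in the table. The YY1 word (28.99% against 5.16%) and the ETS word (42.0% against 18.5%) stand out, and the CCAAT and GC box words are less frequent among the members.

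Many of these genes start near a neighbour read from the other strand. For 29 of the 78 (37.2%) a protein-coding gene on the opposite strand starts within 1000 bases, against 16.8% of tested protein-coding genes. Starts upstream and downstream of the member's own start were both counted, so some of these pairs overlap. MRPL46 and MRPS11 start 34 bases apart. The starts of MRPS12 and SARS2, the mitochondrial seryl-tRNA synthetase, lie 348 bases apart, and the 2 genes share exonic bases. Of the 28 neighbours tested, 3 rose and 1 fell, a share near the 15.1% called among all genes tested. MRPL46 and MRPS11, both members, count among the 28 as each other's neighbour. NDUFS6, a complex I subunit beside MRPL36 (log2 change 0.23, edgeR adjusted p = 0.00507), PPP1R10 beside MRPS18B (0.19, 0.000254) and FAU beside MRPL49 (0.09, 0.0414) rose. The chaperonin gene TCP1 beside MRPL18 fell (-0.10, 0.00187). None of these 4 starts beside a called member. The called MRPL52 faces SLC7A7 at 59 bases (0.11, 0.0645) and the called MRPS34 faces EME2 at 52 bases (0.14, 0.294).

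The 3′ untranslated regions (UTRs) of the members were short, with a median of 398 bases against 1079 for tested protein-coding genes. The words AGACCAA and its shifted form GACCAAA were found frequent among genes that fell in these same data, so they are no independent evidence here. One or the other lay in 11 of the 78 (14.1%), beside 15.8% of tested genes, and the 11 had a median log2 change of 0.0018 against 0.04 in the 67 without. Of all tested genes with a word 17.2% were called lower, against 6.05% of those without. Of the 11 members MRPS14 fell and 10 were not called, and of the 67 without a word 7 rose and 2 fell. MRPS23 holds further words at UTR bases 1224 and 4393, which are not shown. The sites of MRPS14, at UTR base 74 of 1711, and of 2 holders that were not called, MRPL34 at 204 of 464 (log2 change -0.16) and MRPS23 at 546 of 5002 (0.10), are shown as DNA letters with the word in capitals, from GENCODE 29 transcripts on GRCh38.
MRPS14: ttttttttaatAGACCAAaccctaatctc
MRPL34: acctgcgcaacAGACCAAagaacagtaca
MRPS23: ctgatacacaaAGACCAAaactgtaactt
The words TCGGAGA and CGGAGAA, found frequent among genes that rose in these data, lay in 0 of 78 members and in 3.35% of tested genes.

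Around the 78 genes, 99 genes of mitochondrial translation and its supply were read from the same fit in 6 lists, of which 8 rose and 3 fell, where 15.1% of all genes tested were called. The 5 further ribosome subunits that carry other names had none called. Among them GADD45GIP1 had a log2 change of 0.05 and AURKAIP1 of 0.08 (edgeR adjusted p = 0.185).

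Ribosome assembly, the longest list, had the most calls by count, 4 higher and 1 lower of 27, with a median log2 change of 0.0004. Over all genes tested 15.1% were called. RCC1L, a factor that works on the rRNA of the large subunit, was at 88.5 ± 2.44 CPM in shITGB5 cells and 72.1 ± 3.31 CPM in shcontrol cells (SD, n = 3 each), a log2 change of 0.30 (edgeR adjusted p = 8.02e-07). The helicase DDX28, which acts in assembly of the large subunit, was at 18.8 ± 0.885 CPM in shITGB5 cells and 14.5 ± 1.04 CPM in shcontrol cells (0.37, 0.00260). The pseudouridine synthase RPUSD4 (0.26, 0.0227) rose as well, losing its call without shITGB5 replicate 1 (0.137) or 3 (0.0525) or shcontrol replicate 2 (0.102). C1QBP, a matrix protein needed for mitochondrial translation, rose (0.12, 0.00623), with 0.0662 without shcontrol replicate 2. ERAL1, which chaperones the rRNA of the small subunit, was called lower (-0.13, 0.0463) at 95.7 ± 9.11 CPM with the ITGB5 hairpin and 104.2 ± 0.367 CPM with the control. The libraries of ERAL1 overlapped between groups, and of the fits that left out a library only that without shITGB5 replicate 2 called it. ERAL1 was also lost with DESeq2 (adjusted p = 0.0909), with limma (0.254) and with no low-count filter (0.0636).

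In the other lists few genes passed, where 15.1% of all genes tested did. Of 23 translation factors and regulators, SLIRP, which protects mitochondrial mRNAs, rose (log2 change 0.26, edgeR adjusted p = 0.0148) and GATC, a subunit of the glutamyl-tRNA amidotransferase, fell (-0.34, 0.00738). Of 17 mitochondrial tRNA synthetases, PARS2, for proline, rose (0.37, 0.0253) and HARS2, for histidine, fell (-0.16, 0.0269). None of 18 genes of mitochondrial transcription and RNA processing passed, among them the abundant HSD17B10 (0.06, 0.232) and FASTK (-0.08, 0.134). Single libraries decided these 4 calls: SLIRP was lost without shITGB5 replicate 3 (0.0535) or shcontrol replicate 1 (0.0818) or 2 (0.0828), and GATC without shcontrol replicate 1 (0.0521) or 3 (0.0864). PARS2 was lost without shITGB5 replicate 2 (0.139) or shcontrol replicate 1 (0.233) or 2 (0.105), and HARS2 without any library other than shcontrol replicate 3 (0.0509 to 0.161). GATC (0.0835) and PARS2 (0.177) were also lost with limma, and HARS2 with no low-count filter (edgeR adjusted p = 0.0634). FASTK passed without shITGB5 replicate 2 (0.0370).

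Of 9 regulators of mitochondrial biogenesis, 2 rose and 7 did not pass, where 8.31% of all genes tested were called higher and 6.74% lower. ESRRA, the estrogen-related receptor that drives nuclear genes for mitochondrial proteins, was at 71.7 ± 2.83 CPM in shITGB5 cells and 58.2 ± 3.32 CPM in shcontrol cells (log2 change 0.30, edgeR adjusted p = 6.65e-06). MYC, a transcription factor known to act on genes of ribosome and mitochondrial biogenesis, was at 57.7 ± 4.36 CPM in shITGB5 cells and 49.8 ± 3.91 CPM in shcontrol cells (0.21, 0.00606), and was lost without shITGB5 replicate 2 (0.0982) or shcontrol replicate 1 (0.131) and with limma (0.133). RCC1L, DDX28 and ESRRA kept their calls whichever library was left out.

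**Figure D5:**
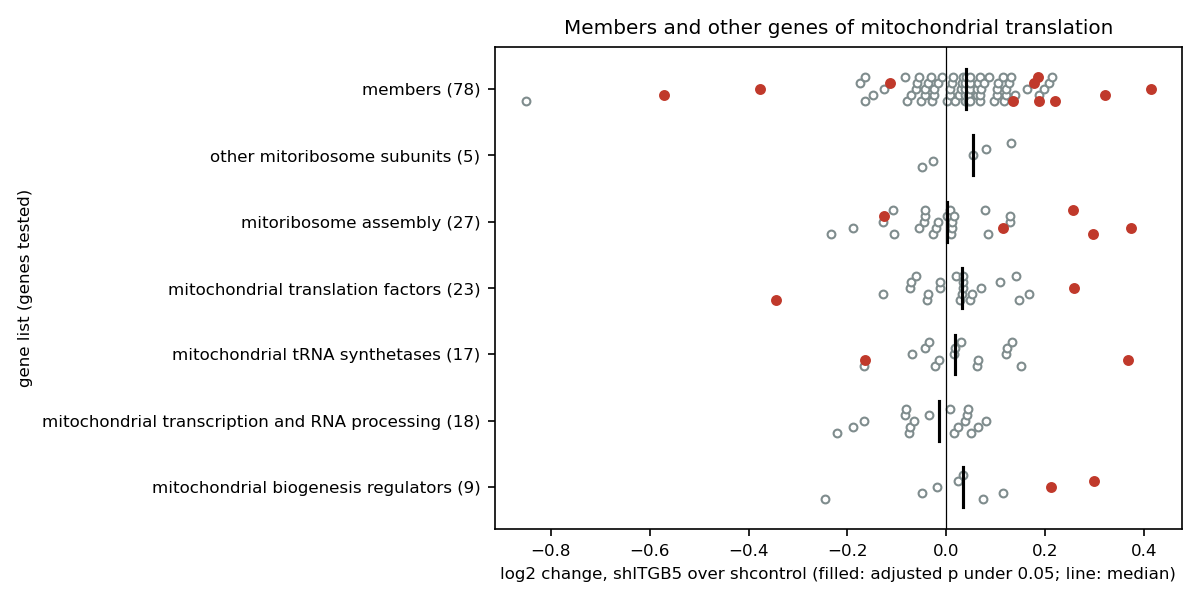
Log2 change (shITGB5 over shcontrol) of every gene in the 6 lists around the mitochondrial ribosome beside the 78 members, with the median of each list as a line and called genes as filled points. All medians lie close to 0, and DDX28, PARS2, RCC1L and ESRRA are the highest of the called genes in the lists.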

How the data were processed

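Total RNA of Huh7 cells was made into 3 shITGB5 and 3 shcontrol libraries with a kit that keeps strand, per the labels' protocols. The authors deposited 1 table, named for FPKM, whose values are whole-number counts per gene. Which aligner and counter were used, and with what strand setting, is not given in the sources used here, so reads of overlapping genes cannot be told apart. Columns coded S were read as the ITGB5 hairpin and NC as the control, which the labels do not spell out. IDs and positions of all 58735 genes equalled those of GENCODE 29 (GRCh38).

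Genes were kept by filterByExpr (16577), scaled by TMM (factors 0.998 to 1.003) and tested with edgeR 4.0.16 (R 4.3.3, quasi-likelihood, two-sided, all 6 libraries, no covariate), with Benjamini-Hochberg adjustment over all genes kept and a threshold of 0.05. CPM are TMM-scaled. FPKM were computed from these counts with the table's gene lengths. The edgeR step was tested on simulated data. Alternatives were other scalings, no low-count filter, DESeq2 1.42.0, limma 3.58.1 on log2(FPKM + 1), a replicate block, a minimum fold of 1.2 and leaving out each library in turn. Robust fitting and a count over members that share no exonic base were added after seeing the data.

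The members and lists were chosen with earlier results of these data known. Named genes were ITGB5, every called member, uncalled members that were extreme in level or change, up to 4 called genes a pathway list (2 abundant ones where none passed) and both mitochondrial rRNA genes. ERAL1, beyond the 4 of its list, MRPL34, and genes named for overlap, promoters, neighbours or UTR words were added after their values were seen.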

Additional observations from a re-analysis of the deposited data

How the results depend on the processing

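MRPL17, MRPS14, MRPS6 and MRPS34 were called under every scaling, filter, tool and left-out library tried, the minimum fold of 1.2 aside, and no called gene changed sign in 14 alternatives. Leaving out each library in turn gave 1939 to 2183 called genes, 4 to 8 members higher and 2 to 4 lower, and 4 to 8 pathway genes higher and 0 to 3 lower. The log2 change of ITGB5 was then -0.29 to -0.25. The sign of MRPL38 (-0.0513 to 0.1657) and MRPL41 (-0.0107 to 0.0811), neither called, turned with the library left out. Against a minimum fold of 1.2, 149 genes passed (83 higher, 66 lower), with 1 member higher, 1 lower and 0 pathway genes in either direction, and ITGB5 at -0.27 did not pass (edgeR adjusted p = 1). With limma on log2(FPKM + 1), 1380 genes passed (756 higher, 624 lower), with 4 members higher, and 1 pathway gene lower. With no low-count filter 1 pathway gene was lower, and MRPS30 missed the threshold (edgeR adjusted p = 0.0635). Of the 37 members that share no exonic base with another gene on either strand, 6 were higher and 1 lower. This count reads the main fit, and it leaves out MRPL33, MRPS14 and MRPS6 because they share exonic bases. Why calls were lost in the alternative fits was not tested. In lowly counted members such as MRPS24, depth limits what can be seen.

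With the replicate number as a block, 2303 genes were called (1271 higher, 1032 lower), with 6 members higher and 3 lower, 8 pathway genes higher and 3 lower, and ITGB5 at -0.27. MRPL52 missed the threshold with the block (edgeR adjusted p = 0.0579). Deviations of log2 CPM from the group mean were correlated between same-numbered libraries over the tested genes. These correlations, 0.028, -0.000125 and -0.0174, did not pair the libraries.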
